A study of Mus musculus with 6 samples.

Results

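Fibronectin, the tenascins and the matricellular proteins are secreted proteins of the extracellular matrix, and 10 genes that encode them were followed in mouse muscle satellite cells with and without a Lmna deletion. The genes were taken by name and were Fn1, Postn, Tnc, Tnxb, Sparc, Sparcl1, Thbs1, Thbs2, Smoc1 and Smoc2. All 10 were found among the 39059 genes in the deposited counts, and all 10 had enough reads to be tested. The mutant libraries came from mice homozygous for the Lmna Δ8-11 deletion (Lmna Δ8-11 -/-, HOM, 3 libraries) and the libraries set against them from Lmna Δ8-11 +/+ mice (WT, 3 libraries). Lmna encodes lamins A and C, proteins that line the inner face of the nucleus, and the deletion is a germline allele, present in muscle fibres and other cells as well as in satellite cells. Both groups were C57BL/6J mice at postnatal day 19, and the cells were isolated from hind-limb muscle, sorted by flow cytometry and extracted freshly, without culture. The labels mention 3 mice per condition but do not tie a library to an animal, so the p-values below measure the spread between these samples, which may be technical in part.

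Fibronectin forms fibrils around cells and is bound by integrins, the main matrix receptors. Matricellular proteins, such as the tenascins, thrombospondins, periostin and the SPARC family, sit in the matrix but act mostly on cell adhesion, growth factor access and collagen assembly rather than as scaffold. In muscle, satellite cells, fibroblast-like progenitors, tendon cells and vessel cells are all known sources of them, and several are components of the niche in which satellite cells rest and divide.

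Gene reads per library numbered 7234298 to 9552751 in HOM and 6613636 to 8426578 in WT. Lmna itself was at 421 ± 39.98 CPM in HOM and 946 ± 108 CPM in WT libraries (CPM is counts per 1000000 reads after scaling of library totals by edgeR's TMM factors; SD, n = 3 each), which checks the labels only in part because reads of undeleted exons are counted too. The satellite cell markers Pax7, Myf5, Cdh15, Vcam1, Itga7, Calcr and Chodl each had at least 34 reads in every library, Itga7 and Chodl being the most abundant. Their summed level was 536, 1214 and 627 CPM in HOM replicates 1, 2 and 3, against 1654, 1545 and 1577 CPM in WT replicates 1, 2 and 3. HOM replicate 2 therefore lay much nearer to WT than the other HOM libraries did. It was also the HOM library with Y-linked reads (4498, against 1 and 3 in HOM replicates 1 and 3), while in WT these numbered 0, 3074 and 4831 in replicates 1, 2 and 3. Gm42418, a predicted gene known to collect reads of ribosomal RNA, was at 13030 CPM on unscaled totals in HOM replicate 2, against 914 and 1044 CPM in HOM replicates 1 and 3, and at 1217, 13900 and 1797 CPM in WT replicates 1, 2 and 3. With both of the libraries high in Gm42418 left out, the log2 fold changes were -2.55 for Postn, -0.90 for Sparc, -0.90 for Tnxb, 2.10 for Smoc1 and -1.54 for Smoc2, and all 5 passed edgeR's test. Over all genes, 3858 passed in that fit, against 2980 with all libraries. Markers of other cells were also abundant: the summed pericyte and smooth muscle list, with Acta2 and Myh11 as its most abundant genes, was at 9965 to 10591 CPM in HOM and 9580 to 13464 CPM in WT libraries. In such bulk samples, fewer cells of a type and less RNA per cell cannot be told apart.

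4 of the 10 genes passed edgeR's quasi-likelihood test at a Benjamini-Hochberg adjusted p of 0.05 over 14099 genes. Smoc1 was higher in HOM cells, and Postn, Smoc2 and Sparc were lower. The other 6 were not called. Of all genes tested, 21.1% were called, 9.67% as higher and 11.5% as lower, and the members' counts are to be read beside these shares. The number of all genes called was 2980 with all libraries. It fell to 1587 without HOM replicate 1, 1576 without HOM replicate 3 and 1602 without WT replicate 1. It fell to 1818 without WT replicate 2 and 2123 without WT replicate 3, and rose to 4002 without HOM replicate 2. The members' median log2 fold change (HOM minus WT) was -0.32, beside -0.0038 over all genes tested. A negative sign was found for 8 of the 10, called or not, and for 7102 of the 14099 genes tested. The HOM and WT ranges did not overlap for 5 of the 10, where 40.7% of all genes tested showed such separation.

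The 2 genes of the SMOC pair moved in opposite directions, so their sequences are shown to make clear how far reads could be shared between them. Smoc1 (chromosome 12, positions 81026808 to 81186414, plus strand, build GRCm38) and Smoc2 (chromosome 17, positions 14279506 to 14404790, plus strand) have coding sequences of 1389 and 1374 bases. Aligned coding bases were 64.9% identical, and the longest identical run in any pair of their annotated transcripts was 33 bases. That run lies in the coding sequence, at bases 1051 to 1143 of Smoc1 and 1018 to 1110 of Smoc2 when 30 bases on either side are included. Capitals mark the shared run, 5′ to 3′, from the GENCODE M21 transcripts:
Smoc1: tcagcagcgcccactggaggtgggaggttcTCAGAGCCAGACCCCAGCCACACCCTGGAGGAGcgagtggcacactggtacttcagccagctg
Smoc2: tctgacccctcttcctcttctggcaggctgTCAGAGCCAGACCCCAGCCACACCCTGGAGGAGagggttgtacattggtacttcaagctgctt
The corresponding longest runs were 14 bases for Sparc and Sparcl1, 22 bases for Tnc and Tnxb and 26 bases for Thbs1 and Thbs2.

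For 5 of the 10 genes the RefSeq table for GRCm38 held a sequence around the start of transcription. They were Postn, Tnc, Tnxb, Sparc and Thbs2. The 250 bases upstream of the start are shown for Postn and Sparc, both of which were lower in HOM cells. For Postn the window is chr3:54360857-54361106 on the plus strand, at the start nearest to the annotated gene, and for Sparc it is chr11:55420081-55420330 on the minus strand, before a start that lies inside the annotated gene. Capitals mark matches to the motifs named next, 5′ to 3′:
Postn: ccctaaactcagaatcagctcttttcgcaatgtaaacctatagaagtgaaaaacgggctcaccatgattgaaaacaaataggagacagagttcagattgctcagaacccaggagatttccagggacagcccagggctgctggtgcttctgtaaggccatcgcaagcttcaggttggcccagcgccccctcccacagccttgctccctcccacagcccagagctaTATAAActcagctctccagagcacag
Sparc: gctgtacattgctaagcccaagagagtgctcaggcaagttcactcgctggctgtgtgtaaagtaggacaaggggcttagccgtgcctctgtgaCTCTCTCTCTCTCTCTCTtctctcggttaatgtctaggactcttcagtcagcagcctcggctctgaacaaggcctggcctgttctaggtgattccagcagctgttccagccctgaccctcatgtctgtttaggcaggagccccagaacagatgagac
The Postn window held the TATA box letters TATAAA, which 12.4% of all 32851 RefSeq windows of this length hold on either strand. The Sparc window held a run of at least 6 CT units, a motif added after the sequence was seen and present in 0.505% of windows. The AP-1 letters TGANTCA (6.75% of windows), the TEAD letters GGAATG (12.6%), the CRE letters TGACGTCA (1.55%) and the GC box letters GGGCGG (32.7%) had no match in these 2 windows, which says only that those letters are not there. Among the other members, the AP-1 letters were in the window of Tnxb, the TATA box letters in those of Tnc and Thbs2, and the GC box letters in those of Tnc. No base lay in matches of more than 1 of these motifs, and the matches describe letters only.

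Fibronectin and periostin. Fn1 (chromosome 1, positions 71585520 to 71653200, minus strand) encodes fibronectin, the fibril-forming ligand of the integrin made of Itga5 and Itgb1. It had 164, 197 and 213 CPM in HOM replicates 1, 2 and 3, against 236, 249 and 221 CPM in WT replicates 1, 2 and 3. Each HOM library lay below each WT library, and the means were 191 ± 25.1 CPM in HOM and 236 ± 14.1 CPM in WT libraries (SD, n = 3 each). The 95% interval of the log2 fold change of -0.30 ran from -0.59 to -0.011 before adjustment, and Fn1 did not pass the test after it (SE 0.13, adjusted p = 0.126 by edgeR). Of its exon bases, 2.5% overlap an antisense gene, as do 2.26% of those of Tnc, 3.42% of those of Thbs1 and 0.0246% of those of Tnxb with other genes on the opposite strand. The sources used here do not say how the counting treated strand.

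Postn (chromosome 3, positions 54361109 to 54391037, plus strand) encodes periostin, a secreted protein with fasciclin domains that binds integrins and takes part in collagen cross-linking. It had 68.3, 210 and 71.7 CPM in HOM replicates 1, 2 and 3, against 414, 423 and 403 CPM in WT replicates 1, 2 and 3. HOM replicates 1 and 3 were low, HOM replicate 2 stood between them and WT, and the WT libraries were close together. Postn was 117 ± 81.1 CPM in HOM and 413 ± 10.4 CPM in WT libraries (SD, n = 3 each), which gave -1.82 as the log2 fold change (SE 0.37, adjusted p = 0.0081 by edgeR). Without HOM replicate 2 it was -2.56 (adjusted p = 8.1e-07), and the fold change remained past the threshold when any other library was left out, at -1.84 to -1.54.

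**Figure D1:**
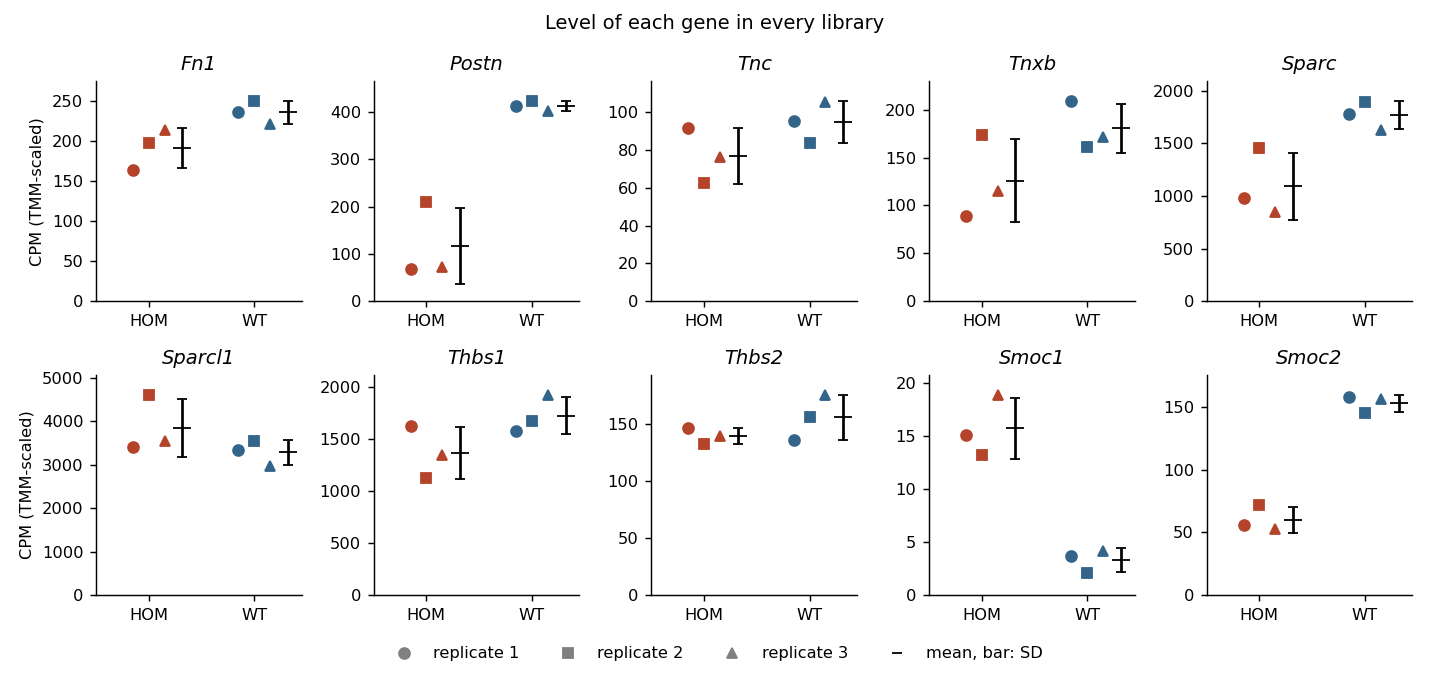
Level of the 10 genes in CPM (linear axis from 0, one panel per gene) in each HOM library, left, and each WT library, right; symbols give replicates 1 to 3 and the bar the mean with its SD. Smoc1 lies above and Postn, Smoc2 and Sparc lie below WT in each HOM library, and HOM replicate 2, the square, is the HOM library nearest to WT for Postn, Sparc and Smoc2.

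Tenascins. Tnc and Tnxb encode tenascin-C, a glycoprotein that weakens cell adhesion and is known from injured and growing tissue, and tenascin-X, which binds collagen fibrils in connective tissue. Tnc (chromosome 4, positions 63959785 to 64047015, minus strand) had 91.8, 62.2 and 76.5 CPM in HOM replicates 1, 2 and 3, against 95.2, 83.6 and 105.5 CPM in WT replicates 1, 2 and 3. Its groups overlapped, and it did not pass (log2 fold change -0.31, 95% interval -0.64 to 0.031, adjusted p = 0.175 by edgeR). Tnxb (chromosome 17, positions 34670535 to 34719815, plus strand) had 89.4, 174 and 115 CPM in HOM replicates 1, 2 and 3, against 209, 161 and 171 CPM in WT replicates 1, 2 and 3. HOM replicates 1 and 3 lay below the WT libraries, and HOM replicate 2 lay among them. It did not pass over the 6 libraries (log2 fold change -0.52, SE 0.21, adjusted p = 0.113 by edgeR), but passed without HOM replicate 2, at -0.82 (adjusted p = 0.0028). With no filter on low counts it passed at an unchanged -0.52 (adjusted p = 0.0030 by edgeR). Tnxb had at least 639 reads in each library, and that pass came from a smaller SE, 0.14, and not from a larger difference. The SE of Postn was smaller in that fit too, at 0.15 against 0.37.

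SPARC and SPARC-like. Sparc (chromosome 11, positions 55394500 to 55423183, minus strand) encodes a collagen-binding, calcium-binding glycoprotein, also called osteonectin, and Sparcl1 (chromosome 5, positions 104079111 to 104113733, minus strand) its larger relative hevin. Sparc had 985, 1452 and 846 CPM in HOM replicates 1, 2 and 3, against 1779, 1894 and 1625 CPM in WT replicates 1, 2 and 3. Each HOM library lay below each WT library, with HOM replicate 2 the closest. The log2 fold change of Sparc was -0.69 (SE 0.20, 95% interval -1.13 to -0.25, adjusted p = 0.0348 by edgeR). This call was near the threshold: the adjusted p was between 0.0586 and 0.124 when any 1 library other than HOM replicate 2 was left out, with log2 fold changes of -0.75 to -0.53, and 0.0564 when a term for Y-linked reads was added to the fit. Without HOM replicate 2 the log2 fold change was -0.95. Sparcl1 had 3404, 4612 and 3544 CPM in HOM replicates 1, 2 and 3, against 3345, 3543 and 2967 CPM in WT replicates 1, 2 and 3. The groups overlapped, HOM replicate 2 was the highest library, and no difference was detected (log2 fold change 0.23, 95% interval -0.15 to 0.61, adjusted p = 0.367 by edgeR).

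Thrombospondins. Thbs1 encodes thrombospondin-1, which binds Cd47 and Cd36 and can activate latent TGF-beta, and Thbs2 its close relative of the same trimeric class. Thbs1 (chromosome 2, positions 118111876 to 118127133, plus strand) had 1622, 1126 and 1345 CPM in HOM replicates 1, 2 and 3, against 1577, 1678 and 1925 CPM in WT replicates 1, 2 and 3. Its groups overlapped through HOM replicate 1, and it did not pass (log2 fold change -0.34, 95% interval -0.72 to 0.036, adjusted p = 0.176 by edgeR). Thbs2 (chromosome 17, positions 14665500 to 14694235, minus strand) had 146, 133 and 139 CPM in HOM replicates 1, 2 and 3, against 136, 156 and 175 CPM in WT replicates 1, 2 and 3. Its groups overlapped, and its interval of -0.43 to 0.11 around a log2 fold change of -0.16 was the narrowest of the 10 genes. The annotated span of Thbs2 lies 260.7 kb beyond that of Smoc2 on chromosome 17, and the fitted log2 fold changes of these neighbours were -0.16 for Thbs2 and -1.35 for Smoc2. The difference between those 2 values was not tested.

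SMOC proteins. Smoc1 and Smoc2 encode SPARC-related modular calcium-binding proteins of basement membranes, and Smoc1 is known from frog embryos as an inhibitor of BMP signalling. Smoc1 had 15.1, 13.2 and 18.9 CPM in HOM replicates 1, 2 and 3, against 3.70, 2.07 and 4.19 CPM in WT replicates 1, 2 and 3. These levels rest on 108, 124 and 144 reads in the HOM libraries and on 32, 13 and 33 reads in the WT libraries, so the WT level in particular is known only roughly. Each HOM library lay above each WT library, and the log2 fold change was 2.21 (SE 0.26, 95% interval 1.63 to 2.80, adjusted p = 0.00091 by edgeR), or 4.63-fold. Smoc2 had 55.7, 71.5 and 52.5 CPM in HOM replicates 1, 2 and 3, against 157, 145 and 156 CPM in WT replicates 1, 2 and 3. The HOM and WT libraries of Smoc2 formed separate and narrow groups, at 59.9 ± 10.2 CPM in HOM and 153 ± 6.69 CPM in WT libraries (SD, n = 3 each). Its log2 fold change was -1.35 (SE 0.13, adjusted p = 0.00057 by edgeR). Both SMOC genes were called in each of the 15 fits run, the alternatives included, with log2 fold changes of 1.99 to 2.40 for Smoc1 and -1.54 to -1.26 for Smoc2.

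**Figure D2:**
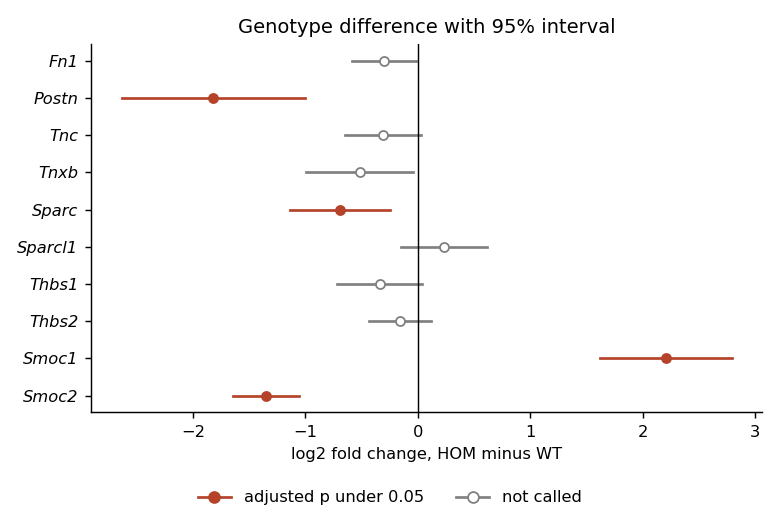
Fitted log2 fold change (HOM minus WT) of the 10 genes with the 95% interval; filled red points passed edgeR's test at an adjusted p of 0.05 and open grey points did not. Smoc1 lies at 2.21 and Postn, Smoc2 and Sparc lie at -1.82, -1.35 and -0.69, while the other 6 genes lie between -0.52 and 0.23.

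Whether related genes differed in their genotype difference was examined with the log2 ratio of their reads within each library, a quantity that does not depend on library scaling. For 4 pairs the genotypes were compared with an exact permutation test, two-sided, whose smallest p is 0.1 with 3 against 3 libraries. The Smoc1 to Smoc2 log2 ratio was -1.88, -2.44 and -1.47 in HOM replicates 1, 2 and 3, against -5.39, -6.08 and -5.20 in WT replicates 1, 2 and 3. The groups were far apart, with a difference of 3.63 (exact permutation p = 0.1, the smallest the design allows, and 0.2 adjusted over the 4 pairs). Since Smoc1 alone and Smoc2 alone already separated the groups, in opposite directions, that p was fixed beforehand and adds no support. The Sparc to Sparcl1 log2 ratio was -1.79, -1.67 and -2.07 in HOM replicates 1, 2 and 3, against -0.91, -0.90 and -0.87 in WT replicates 1, 2 and 3. Its groups did not overlap either, HOM replicate 2 included, and differed by -0.95 (exact permutation p = 0.1, adjusted 0.2). The ratios of Thbs1 to Thbs2 and of Tnc to Tnxb overlapped between the groups, with differences of -0.20 (exact permutation p = 0.3) and 0.25 (exact permutation p = 0.6). The sign of the Tnc to Tnxb difference turned without HOM replicate 1, at -0.11.

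**Figure D3:**
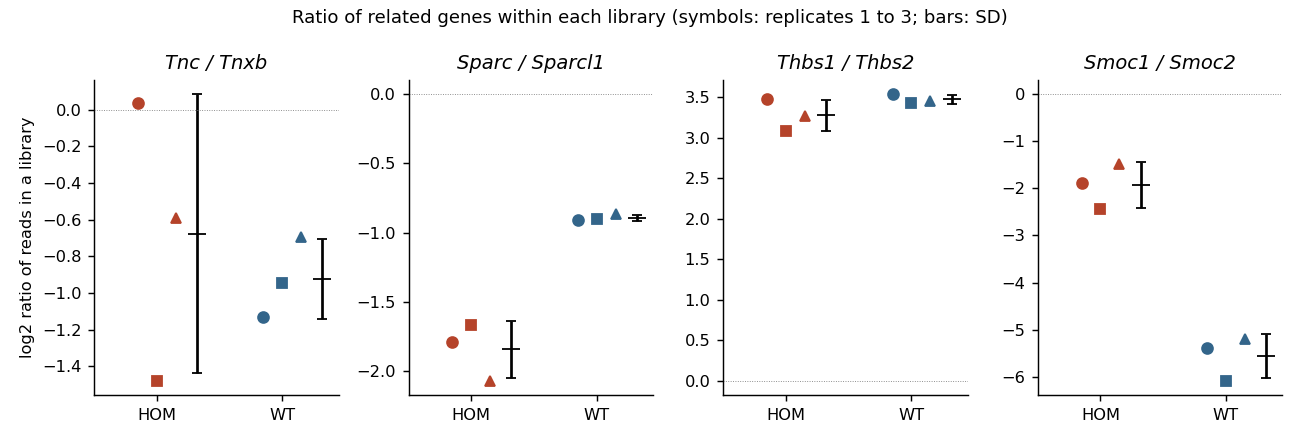
Log2 ratio of the reads of related genes within each library, HOM left and WT right, with one panel and one axis range per pair; symbols give replicates 1 to 3 and bars the mean with its SD. The Smoc1 to Smoc2 and Sparc to Sparcl1 ratios separate the groups, at -1.93 against -5.55 and at -1.84 against -0.89 on average, and the other ratios overlap.

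Levels of different genes were compared per length, as CPM per kilobase of annotated exon. On that scale Sparcl1 was the highest in both groups, at 1312 ± 225 in HOM and 1119 ± 99.5 in WT libraries (SD, n = 3 each). Sparc followed at 289 ± 83.8 in HOM and 466 ± 35.6 in WT libraries, and Thbs1 at 225 ± 40.9 in HOM and 284 ± 29.5 in WT libraries. In the HOM group the spreads of Sparc and Thbs1 overlapped, so their order there is not settled. Next in WT came Postn at 47.5 ± 1.20, beyond the spread of Thbs2 at 22.2 ± 2.82, Smoc2 at 21.99 ± 0.96 and Fn1 at 20.2 ± 1.20, which did not differ beyond theirs. In HOM libraries the order was Thbs2 at 19.9 ± 0.97, Fn1 at 16.4 ± 2.15, Postn at 13.4 ± 9.32, Tnxb at 10.3 ± 3.53, Tnc at 9.88 ± 1.90 and Smoc2 at 8.61 ± 1.46. Of these HOM neighbours, Thbs2 lay above Fn1 by a little more than their spreads, and the spreads of the other neighbours overlapped. Tnxb at 14.8 ± 2.07 and Tnc at 12.2 ± 1.41 had overlapping spreads in WT. Smoc1 was the lowest in both groups, at 4.49 ± 0.83 in HOM and 0.95 ± 0.32 in WT libraries. The 10 genes together took 0.646, 0.795 and 0.678% of gene reads in HOM replicates 1, 2 and 3, against 0.815, 0.793 and 0.769% in WT replicates 1, 2 and 3. Sparcl1, Thbs1 and Sparc made up 89.3 to 90.5% of their summed CPM in HOM and 84.1 to 85.4% in WT libraries.

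Of the lower members, Postn varied most among the HOM libraries, Sparc less and Smoc2 least, and the markers of satellite and tendon cells varied too. Relative to the WT mean, Postn stood at -2.60, -0.97 and -2.53 on the log2 scale in HOM replicates 1, 2 and 3, Sparc at -0.84, -0.28 and -1.06, and Smoc2 at -1.46, -1.10 and -1.54. On the same scale the summed satellite cell markers stood at -1.57, -0.39 and -1.34 in HOM replicates 1, 2 and 3, and 5 of these 7 genes were called as lower and 0 as higher. Beside the marker counts given here, 11.5% of all genes tested were called as lower and 9.67% as higher. The 5 tendon markers, Tnmd and Fmod being the most abundant, summed, were at 20.6, 81.1 and 31.8 CPM in HOM replicates 1, 2 and 3, against 115, 136 and 124 CPM in WT replicates 1, 2 and 3, with 3 called as lower. Kera, a keratan sulphate proteoglycan of that list, had no read in HOM replicates 1 and 3. The fibro-adipogenic progenitor markers summed to 1410, 1427 and 1173 CPM in HOM replicates 1, 2 and 3, against 2012, 2084 and 2198 CPM in WT replicates 1, 2 and 3. Their HOM sums stood at -0.57, -0.56 and -0.84 relative to the WT mean, so by this sum HOM replicates 1 and 2 lay about equally far from WT. Dcn, which was not called, made up most of the sum, at 1076, 885 and 838 CPM in HOM replicates 1, 2 and 3. Dpt, Lum, Col1a1 and Cd34, the genes called as lower, each had their highest HOM value in replicate 2. In that list 4 of 7 genes were called as lower and 1, the receptor gene Pdgfra, as higher, and Dcn and Col1a1 were the most abundant. The part of these shifts in the levels of Postn, Sparc and Smoc2 was not tested. Tnxb also had its highest HOM value in replicate 2, whereas Tnc and Thbs1 had their lowest HOM value there.

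**Figure D4:**
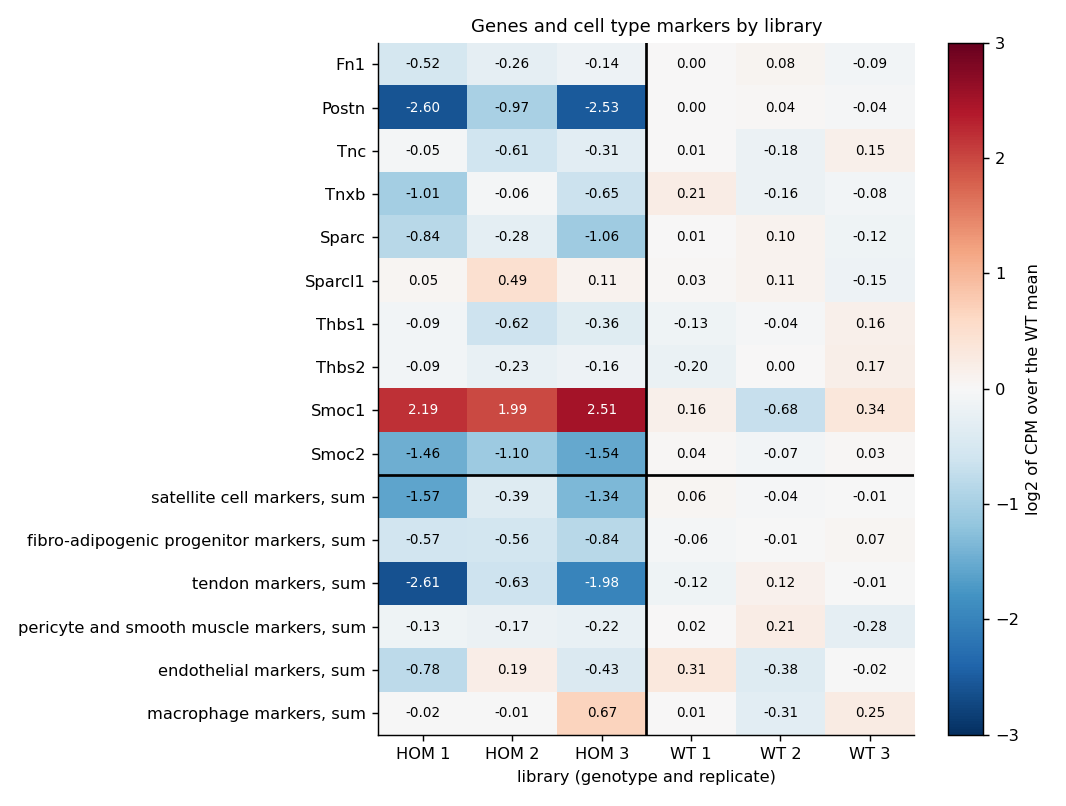
Log2 of CPM over the mean of the 3 WT libraries, for the 10 genes above the line and for summed cell type markers below it, with HOM replicates 1 to 3 left and WT replicates 1 to 3 right; red is above and blue below the WT mean. Postn, satellite cell and tendon rows are much lower in HOM replicates 1 and 3 than in HOM replicate 2, while Smoc1 is high in each HOM library. Adipocyte markers are left out because they were near 0 in WT.

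Other marker lists moved less or in another way. Their calls stand beside 11.5% of all genes tested called as lower and 9.67% as higher. The 7 endothelial markers, with Pecam1 and Cdh5 as the most abundant, gave 0 calls by edgeR, 0 at an unadjusted p under 0.05 and 0 by DESeq2, and summed to 291 to 571 CPM in HOM and 385 to 621 CPM in WT libraries. Of the pericyte and smooth muscle markers 2 of 7 were called as higher and 1 as lower. The macrophage markers, led by Lyz2 and Cd68, summed to 42.5 to 68.7 CPM in HOM and 34.8 to 51.3 CPM in WT libraries, with 2 of 5 tested genes higher. The other 3 were not called and had negative log2 fold changes. The adipocyte markers, led by Cfd and Cidec, summed to 54.6 to 382 CPM in HOM and 0.463 to 1.02 CPM in WT libraries, with 3 of 3 tested genes higher. Of the defining adipocyte genes, Adipoq, which encodes adiponectin, was at 9.09, 6.47 and 37.2 CPM in HOM replicates 1, 2 and 3, against 0.23, 0.32 and 0.51 CPM in WT replicates 1, 2 and 3 (log2 fold change 5.58, SE 0.85, adjusted p = 0.0025 by edgeR). Plin1 and Lep were at most at 0.954 CPM in any library. Smoc1 was the one member higher in HOM, and the part of adipocyte and macrophage transcripts in it was not tested. Within HOM, Smoc1 was highest in replicate 3, at 18.9 CPM, where the adipocyte sum was 382 CPM, and it was at 13.2 CPM in replicate 2, where that sum was 54.6 CPM.

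Of 26 related genes, among them further tenascins, thrombospondins, SPARC-family, CCN and fibulin genes, 23 were tested, 8 were lower, 3 were higher and 12 were not called. Their median log2 fold change was -0.25. Over all genes tested, 11.5% were called as lower and 9.67% as higher. The 3 untested genes, Tnr, Spock1 and Ccn6, had at most 6 reads in a library. Efemp1, a fibulin, had 4.34, 4.45 and 4.19 CPM in HOM replicates 1, 2 and 3, against 17.0, 16.7 and 15.7 CPM in WT replicates 1, 2 and 3. The groups were tight and separate, HOM replicate 2 included, and the log2 fold change was -1.92 (SE 0.17, adjusted p = 0.00043 by edgeR). Spock2, a testican proteoglycan related to SPARC, was higher, at 43.6 ± 4.81 CPM in HOM and 16.2 ± 3.55 CPM in WT libraries (log2 fold change 1.42, SE 0.17). Fbln1, another fibulin, was lower at 9.55 ± 0.73 CPM in HOM and 21.2 ± 0.85 CPM in WT libraries (log2 fold change -1.14). Ccn4, a Wnt-inducible CCN protein, was lower at 19.6 ± 1.60 CPM in HOM and 36.6 ± 5.63 CPM in WT libraries (log2 fold change -0.90). The CCN genes Ccn1 and Ccn2, named after their values were seen, were called in opposite directions. Ccn1 was at 507 ± 88.9 CPM in HOM and 929.7 ± 113 CPM in WT libraries, and Ccn2 at 427 ± 36.9 CPM in HOM and 279 ± 29.8 CPM in WT libraries. Of the exon bases of Ccn2, 23.2% overlap another gene on the opposite strand. Its count may hold reads of that gene, and how many was not tested. Without HOM replicate 2, 13 related genes were lower and 3 higher. In that fit 2238 of all genes were lower and 1764 higher, against 1617 and 1363 with all libraries.

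Of 23 receptor genes, not all of them for these proteins, 22 were tested, 7 were lower, 4 were higher and 11 were not called. Their median log2 fold change was -0.16. Shares over all genes tested were 11.5% lower and 9.67% higher. The difference between the 2 subunits of the classical fibronectin receptor was not tested, and each is given by its own values. Itga5, the alpha subunit, had 127, 62.8 and 112 CPM in HOM replicates 1, 2 and 3, against 39.2, 31.95 and 39.6 CPM in WT replicates 1, 2 and 3. Each HOM library lay above each WT library (log2 fold change 1.44, SE 0.23, adjusted p = 0.0029 by edgeR), with HOM replicate 2 again the nearest to WT. No difference was detected for Itgb1, its beta subunit, at 1259 ± 71.2 CPM in HOM and 1361 ± 74.7 CPM in WT libraries (log2 fold change -0.11, 95% interval -0.41 to 0.18). Itga4, an alpha subunit that binds fibronectin and Vcam1, was lower at 13.3 ± 2.91 CPM in HOM and 29.9 ± 2.27 CPM in WT libraries (log2 fold change -1.18). Its exons overlap those of Cerkl on the opposite strand over 8.04% of their bases. Ddr2, a collagen receptor kinase, was lower at 78.0 ± 8.70 CPM in HOM and 147.5 ± 5.58 CPM in WT libraries (log2 fold change -0.92), and an antisense gene overlaps 0.972% of its exon bases. Lrp1, an endocytic receptor that takes up thrombospondins, was higher at 466 ± 35.1 CPM in HOM and 275 ± 25.7 CPM in WT libraries (log2 fold change 0.76). The thrombospondin receptor genes Cd47 and Cd36 were not called, with log2 fold changes of 0.0041 and 0.30. The number of receptors called was 7 in each fit without HOM replicate 1, HOM replicate 3 or WT replicate 1, with 3, 4 and 4 of them lower, against 11 and 7 with all libraries. Over all genes these fits called 1587, 1576 and 1602, with 881, 884 and 947 of them lower. With all libraries these numbers were 2980 and 1617. Itga7 stands in this list and among the satellite cell markers.

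**Figure D5:**
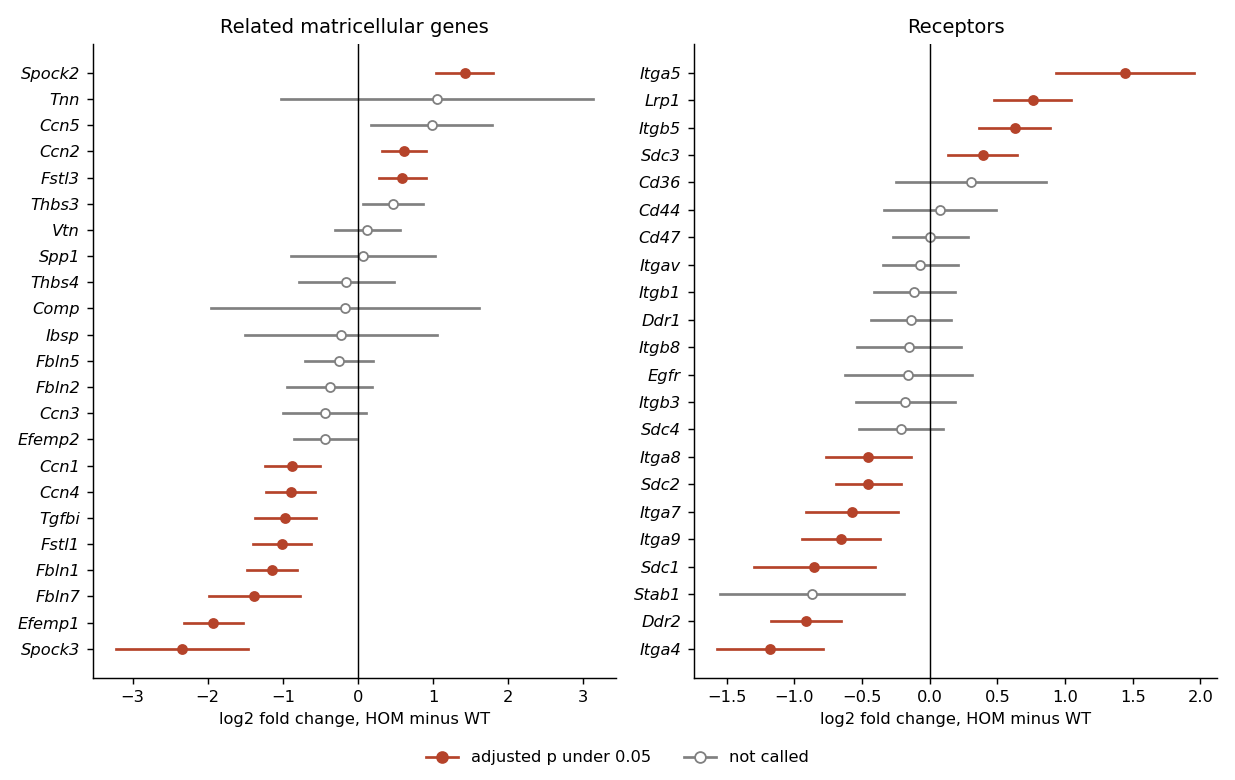
Fitted log2 fold change (HOM minus WT) with its 95% interval for 23 related matricellular genes, left, and 22 receptor genes, right, ordered from highest to lowest; filled red points passed edgeR's test at an adjusted p of 0.05. Spock2 and Itga5 lie at the upper end, at 1.42 and 1.44, and Spock3 and Itga4 at the lower end, at -2.34 and -1.18.

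The genes whose profile over the 6 libraries was most like that of a member were found by the root mean square difference between centred log2 CPM values, with candidates limited to genes averaging 10 CPM or more. Nearest to Postn were Tnfrsf19, Nppc and Sox11, at differences of 0.105 to 0.132. Sparc was nearest to Tshz1, Kctd15 and Igfbp6, at 0.0527 to 0.0576. The nearest to Smoc2 were Marcks, Svep1 and Hsp90aa1, at 0.0688 to 0.0833. For Smoc1, Il6ra and Gpnmb were among the nearest, at 0.203 and 0.246, a looser likeness than for the genes named here for the other 9 members. For the 6 genes not called, the nearest were Psmg2, Opa3 and Taf1b for Fn1, Zfp800, Ammecr1 and Gbp7 for Tnc, and Caskin2, Aqp1 and C1qtnf7 for Tnxb. They were Rbpms2, Zfp949 and Sirt3 for Sparcl1, Serp1, Rab18 and Hspa13 for Thbs1, and Hnrnph3, Ube2n and Cnbp for Thbs2. These likenesses cover 6 libraries in 2 groups and describe them only.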

How the data were processed

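Total RNA from 6 libraries was sequenced after ribosomal RNA removal with a stranded kit, per the labels' protocols. For each library the authors deposited whole-number counts of reads by Ensembl gene, neither scaled nor filtered as far as the values show. The submitters' processing notes name Trimmomatic 0.32, STAR 2.5.2b, HTSeq 0.6.1 and mm10. The sources used here do not say what each tool did, whether strand was used or which annotation was counted. Summary lines, 45 to 49.8% of reads in a file, were left out of totals and tests. GENCODE M21 on GRCm38, the assembly of mm10, matched 38861 of 39059 identifiers.

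Counts were filtered with filterByExpr (minimum count 10, minimum total 15), scaled with TMM factors and compared with the quasi-likelihood test of edgeR 4.0.16 in R 4.3.3, without covariates, with Benjamini-Hochberg adjustment over 14099 genes. The test was checked on counts simulated with the same relative spread for all genes. That check does not cover genes that vary more or a library that stands apart, as HOM replicate 2 does. A standard error is the log2 fold change divided by the square root of F, and 95% intervals use the fit's degrees of freedom. Log2 ratios of related genes had 0.5 reads added. Libraries of a group differed from each other beyond sampling noise (chi-square of 8.35 to 22.5 per gene).

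Text names all members, up to 4 called genes with the smallest p of each other list, and the 2 most abundant markers per list. Some results that this rule would name are not reported here. The members, lists and alternatives were chosen with earlier results of these data known. Alternatives were other scaling (DESeq2 size factors, library totals), the DESeq2 1.42.0 Wald test, other filters, replicate number or Y-linked reads as covariate, and omission of libraries.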

Additional observations from a re-analysis of the deposited data

How the results depend on the processing

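Postn, Smoc1 and Smoc2 were called with the same sign in each of the 15 fits, and Sparc in 9 of them. Tnxb was called in 3, and Fn1, Tnc, Sparcl1, Thbs1 and Thbs2 in 0, the DESeq2 fit included. The fits that left out 1 library gave 2 to 4 lower members and 1 higher one, 10 to 16 related genes called (8 to 13 lower, 2 to 4 higher) and 7 to 12 receptors called (3 to 9 lower, 3 to 4 higher). Over all genes these fits called 1576 genes (without HOM replicate 3) to 4002 (without HOM replicate 2), with 655 to 1764 higher and 881 to 2238 lower. The Tnc to Tnxb difference in log2 ratio ran from -0.11 without HOM replicate 1, the reverse of its sign with all libraries, to 0.65 without HOM replicate 2. With Y-linked reads as a covariate 1932 genes were called, 793 of them higher. Without a low-count filter 6 related genes were higher, against 3 in the main fit, and 1700 of all genes, against 1363. That fit also took in genes with too few reads for the main test, and the SE of Postn and Tnxb was smaller in it. Without HOM replicate 2 and WT replicate 2 together, 19 related genes were called, 15 of them lower, against 11 and 8 with all libraries. Over all genes that fit called 3858, 2163 of them lower, against 2980 and 1617 with all libraries. The cause of these shifts was not tested.

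Over all genes, deviations of same-numbered libraries correlated at -0.0498, 0.0183 and -0.101, and the libraries did not all correlate best with their own number, so the numbers were not taken as pairs. Both replicates numbered 2 were high in Gm42418, at 13030 CPM in HOM and 13900 CPM in WT. Both also held Y-linked reads, 4498 in HOM and 3074 in WT, as did WT replicate 3 with 4831. Apart from the correlation of 0.0183 above, what else the replicates numbered 2 share was not tested. With the replicate number as a block, 2437 genes, 4 members, 11 related genes and 9 receptors were called, and Postn had a log2 fold change of -2.03. Depth limits Smoc1 most, whose WT libraries held 13 to 33 reads.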
